A study of Mus musculus with 8 samples.

Results

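The Hox cluster genes are the protein-coding homeobox genes of the Hoxa, Hoxb, Hoxc and Hoxd clusters. They were taken by symbol, as Hoxa, Hoxb, Hoxc or Hoxd followed by a number, and 39 of the 24963 genes in the expression table met this rule: 11 in Hoxa, 10 in Hoxb, 9 in Hoxc and 9 in Hoxd. Their mRNA was measured by RNA-seq of whole uterus at gestation day 3.5 (GD3.5), to ask what loss of the orphan nuclear receptor NR2F2 does to gene expression in the uterus at the time it becomes receptive. The controls were 4 Nr2f2 f/f mice, with both Nr2f2 alleles floxed and no Cre. The mutants were 4 Nr2f2 d/d mice, with the same floxed alleles and Cre knocked into 1 allele of Pgr, the progesterone receptor gene, so that Nr2f2 is removed in cells that express Pgr and 1 Pgr allele carries Cre instead of being intact. All 8 females were on the C57B6/J strain, and the labels give their age at mating as 8 weeks. They had been mated to vasectomized males, so both groups were pseudopregnant and held no embryo. Each mouse gave 1 library, without any other treatment, and p-values below therefore set group differences against the spread between mice.

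Hox genes encode transcription factors that set identity along the body axis. Within a cluster they lie in numerical order and on the same strand, the low numbers at the 3' end and the high numbers at the 5' end, and genes with the same number in different clusters are paralogs. In the female tract Hoxa9, Hoxa10, Hoxa11 and Hoxa13 pattern oviduct, uterus, cervix and vagina in that order, Hoxa10 and Hoxa11 are later needed in uterine stroma for implantation and decidualization, and the Hoxd genes of the same numbers overlap with them in function.

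The values are FPKM, fragments scaled to the length of the gene and the total of the library, so levels can be compared between genes. Library totals recovered from the values were 61250000 to 92350000 fragments, and the mutants were sequenced more deeply (median 80800000 fragments) than the controls (median 62475000 fragments). Nr2f2 itself was 21.8 to 25.7 FPKM in the Nr2f2 f/f uteri and 6.90 to 9.74 FPKM in the Nr2f2 d/d uteri (log2 fold change -1.39, adjusted p = 0.00549 from limma), so every library matched its genotype label. Testing with limma on log2(FPKM + 0.5) was limited to genes whose average was 0.5 FPKM or more, which left 14323 genes and 25 of the 39 Hox genes. Fold changes below are on that scale, Nr2f2 d/d over Nr2f2 f/f, with their standard error (SE), and p-values were adjusted over all 14323 genes. In whole tissue, fewer cells of a type and less RNA per cell cannot be told apart.

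The Hoxd cluster was lower in the Nr2f2 d/d uterus as a block. All 6 Hoxd genes with measurable mRNA (Hoxd3, Hoxd4, Hoxd8, Hoxd9, Hoxd10 and Hoxd11) were below every control in every mutant, at 51.1% to 80.8% of the control mean, and all 6 passed an adjusted p of 0.05. In the other 3 clusters only Hoxb9 passed it, of 19 genes tested, and Hoxa10 and Hoxa11, the most abundant Hox mRNAs in this tissue, did not. Over all Hox genes tested, 7 of 25 passed the adjusted threshold and all 7 were lower, where 1.53% of all genes tested were lower by this rule. By an unadjusted p under 0.05 with a fold change of at least 1.4, 6 of 25 passed, all lower, against 4.1% of all genes. With every mutant below every control there were again 7 of 25, against 9.91% of all genes tested. These 7 were Hoxb9 and the 6 Hoxd genes, of which Hoxd3 and Hoxd4 share exon bases and are not separate measurements. The calls by the unadjusted rule were Hoxd3, Hoxd4, Hoxd8, Hoxd11, Hoxb9 and Hoxa9.

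**Figure D1:**
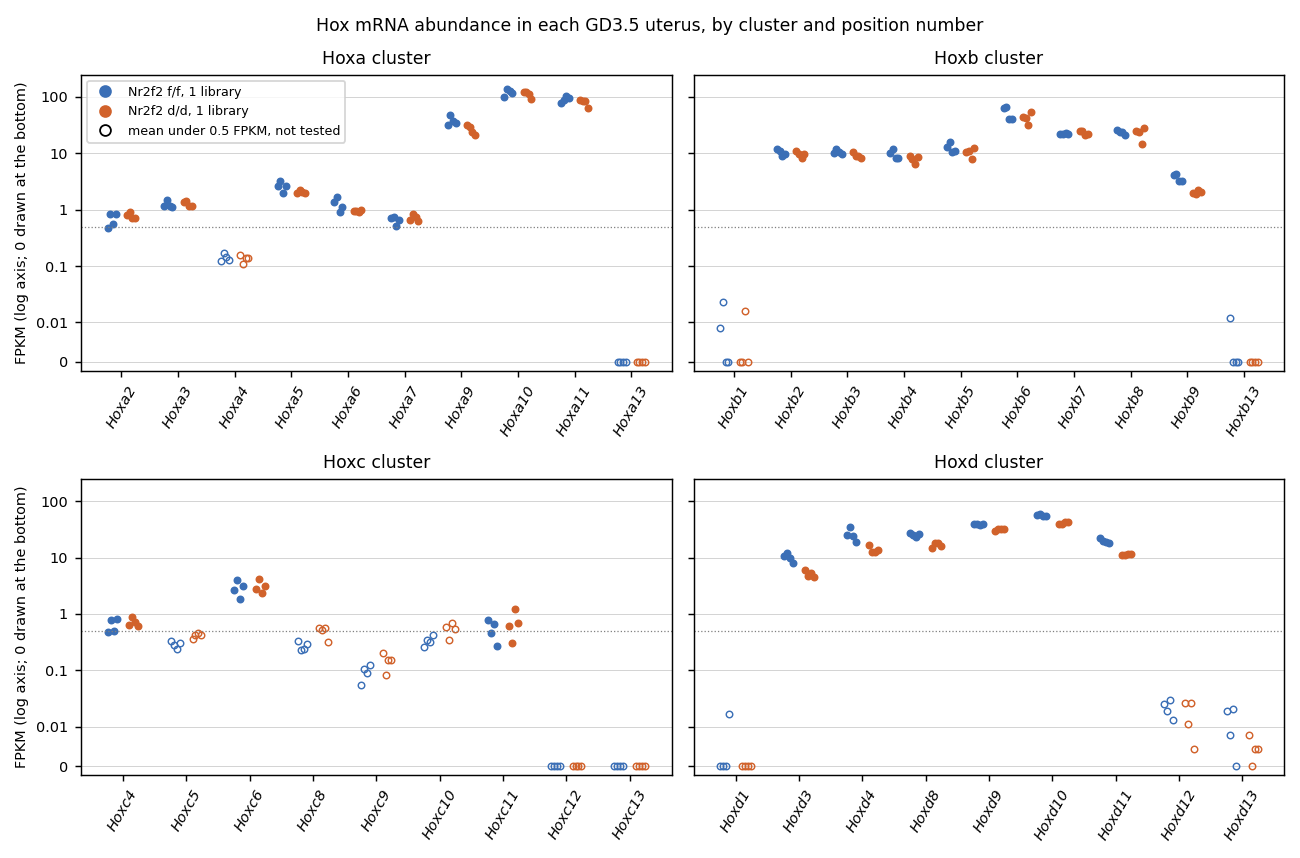
FPKM of the Hox genes in each library, on a log axis with values of 0 drawn at the bottom, for 4 Nr2f2 f/f uteri (blue) and 4 Nr2f2 d/d uteri (orange). Open circles are genes with a mean under 0.5 FPKM (dotted line), which were not tested. The 6 Hoxd genes from Hoxd3 to Hoxd11 and Hoxb9 are the tested genes in which the colours separate, while Hoxa10 and Hoxa11 lie highest and overlap.

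The promoters of the Hoxd genes are shown because the 6 genes moved together. NR2F2 and many other nuclear receptors bind repeats of the half-site AGGTCA or its variant GGGTCA. The 250 bases before the start of each gene were searched for these letters on both strands, in promoters from RefSeq (GRCm38.p6), which held 24 windows for 22 of the 39 Hox genes. Of the lowered Hoxd genes, Hoxd3, Hoxd4, Hoxd8 and Hoxd10 held AGGTCA, and Hoxd9 and the 2 windows of Hoxd11 held neither word. Among genes that were not called, Hoxb4 and Hoxc4 held AGGTCA and Hoxa11 held GGGTCA. Hoxb9 had no window in the table. In all, 7 of 24 Hox windows held a half-site (29.2%), beside 23.8% of 32851 windows of all genes. By cluster these were 4 of 10 Hoxd windows, 1 of 10 in Hoxa, 1 of 3 in Hoxb and 1 of 1 in Hoxc, numbers too small to read as a difference. A match is a run of letters and does not mark a binding site. The windows below are written 5' to 3' in the direction of the gene, with the half-site in capitals (TGACCT is AGGTCA on the other strand), and leave out annotated exons. Hoxd9 stands for the lowered genes without a half-site, of which Hoxd11 is the other, and Hoxb4 has a half-site and was not called.
Hoxd3, chr2:74711743-74711926, plus strand: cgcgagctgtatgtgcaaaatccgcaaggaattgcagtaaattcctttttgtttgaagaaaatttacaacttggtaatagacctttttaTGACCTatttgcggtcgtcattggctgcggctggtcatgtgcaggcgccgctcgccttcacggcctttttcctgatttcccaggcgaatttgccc
Hoxd4, chr2:74721728-74721977, plus strand: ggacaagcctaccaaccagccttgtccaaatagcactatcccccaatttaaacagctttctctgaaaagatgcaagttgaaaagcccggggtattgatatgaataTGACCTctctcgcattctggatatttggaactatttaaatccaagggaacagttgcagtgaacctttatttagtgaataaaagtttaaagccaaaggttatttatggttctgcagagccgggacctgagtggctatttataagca
Hoxd8, chr2:74704365-74704614, plus strand: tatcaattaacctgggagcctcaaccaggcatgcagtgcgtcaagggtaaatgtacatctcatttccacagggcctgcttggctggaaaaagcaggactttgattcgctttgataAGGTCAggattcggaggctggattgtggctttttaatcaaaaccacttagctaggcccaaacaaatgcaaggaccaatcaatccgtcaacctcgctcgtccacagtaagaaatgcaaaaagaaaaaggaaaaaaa
Hoxd9, chr2:74697587-74697726, plus strand: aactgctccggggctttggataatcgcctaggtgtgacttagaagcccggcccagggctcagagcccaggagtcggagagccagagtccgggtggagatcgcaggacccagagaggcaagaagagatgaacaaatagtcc
Hoxd10, chr2:74691641-74691890, plus strand: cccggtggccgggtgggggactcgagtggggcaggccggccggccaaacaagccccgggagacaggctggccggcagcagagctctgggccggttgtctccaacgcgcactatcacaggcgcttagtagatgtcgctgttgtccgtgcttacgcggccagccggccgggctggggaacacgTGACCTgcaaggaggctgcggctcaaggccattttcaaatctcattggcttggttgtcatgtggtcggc
Hoxb4, chr11:96318017-96318266, plus strand: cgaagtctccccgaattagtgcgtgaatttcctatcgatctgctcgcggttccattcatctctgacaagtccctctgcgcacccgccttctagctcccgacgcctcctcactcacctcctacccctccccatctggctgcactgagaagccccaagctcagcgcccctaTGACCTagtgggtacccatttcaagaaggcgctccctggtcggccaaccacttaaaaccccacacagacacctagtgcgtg
The half-site began 161 bases before the RefSeq start of Hoxd3, 145 before Hoxd4, 135 before Hoxd8, 69 before Hoxd10 and 81 before Hoxb4. It lay on the strand of the gene in Hoxd8 and on the opposite strand in the other 4.

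The Hoxd cluster spans 96.8 kb on chromosome 2 (mm10, chr2:74668310-74765142). Hoxd13 and Hoxd12, at its 5' end, pattern distal limb and the terminal urogenital tract. Hoxd13 was 0 to 0.021 FPKM in the controls and 0 to 0.007 FPKM in the mutants, and Hoxd12 was 0.013 to 0.030 FPKM and 0.004 to 0.026 FPKM, near the level of 3 fragments in both groups. Expression began at Hoxd11, which was 22.1, 19.7, 18.9 and 18.4 FPKM in Nr2f2 f/f and 11.2, 11.1, 11.7 and 11.6 FPKM in Nr2f2 d/d (replicates 1 to 4 in order, as throughout). The groups did not overlap, and the mutants differed among themselves by less than 1 FPKM. Hoxd11 fell by 0.76 on the log2 scale (SE 0.0717, adjusted p = 0.00549 from limma), to 57.7% of the control mean. It was the Hox gene with the smallest p.

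Hoxd10, next in order, was the most abundant gene of the cluster and acts with Hoxd9 and Hoxd11 in limb, kidney and reproductive tract. Its mRNA was 57.8, 58.8, 53.9 and 54.2 FPKM in Nr2f2 f/f and 39, 39.1, 43.4 and 42.3 FPKM in Nr2f2 d/d. Every mutant was more than 10 FPKM below every control, and the mean fell to 72.9% of control (log2 fold change -0.45, SE 0.0658, adjusted p = 0.0192 from limma). Hoxd9 was 39.3, 38.9, 37.6 and 39.7 FPKM in Nr2f2 f/f and 29.7, 31.7, 32.6 and 31.7 FPKM in Nr2f2 d/d. This was the smallest of the 6 decreases, to 80.8% of control (log2 fold change -0.30, SE 0.0565, adjusted p = 0.0366 from limma), with groups that were tight and did not overlap. Hoxd9 and Hoxd10 fell by less than 1.4-fold and therefore do not count under the unadjusted rule.

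Hoxd8 lies in the middle of the cluster, beside Hoxd9. It was 27.5, 24.9, 23.6 and 25.8 FPKM in Nr2f2 f/f and 15, 18, 18.4 and 16.2 FPKM in Nr2f2 d/d, without overlap. Its mean fell to 66.4% of control (log2 fold change -0.58, SE 0.0852, adjusted p = 0.0194 from limma).

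Hoxd4 and Hoxd3, toward the 3' end, pattern the hindbrain and cervical vertebrae in the embryo. Hoxd4 was 25.6, 35.1, 24.2 and 19.0 FPKM in Nr2f2 f/f and 16.5, 12.5, 12.4 and 13.8 FPKM in Nr2f2 d/d. The controls varied more than in any other Hoxd gene tested, and the lowest of them still exceeded the highest mutant. Hoxd4 was at 53.1% of control (log2 fold change -0.86, SE 0.179, adjusted p = 0.0484 from limma). Hoxd3 was 10.6, 11.9, 9.88 and 8.03 FPKM in Nr2f2 f/f and 6.11, 4.68, 5.30 and 4.54 FPKM in Nr2f2 d/d. This was the largest decrease of any Hox gene tested, to 51.1% of control (log2 fold change -0.90, SE 0.135, adjusted p = 0.0201 from limma), again without overlap. Exons of Hoxd3 and Hoxd4 overlap on the same strand, with 62.8% of the exon bases of Hoxd3 and 52.3% of those of Hoxd4 shared with another gene, so the 2 values are not separate measurements. Hoxd1, at the 3' end, had 0.017 FPKM in 1 control and was listed at 0 in the other 7 libraries.

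For each of these 6 genes the exact permutation test gave p = 0.0286, the smallest that 4 against 4 libraries allow. The adjusted calls depended on single libraries. Hoxd11 kept its call whichever of the 8 libraries was left out, with adjusted p up to 0.0303 from limma. Without Nr2f2 f/f replicate 1 or without Nr2f2 d/d replicate 2, Hoxd11 was the only Hox gene past the adjusted threshold. Without Nr2f2 d/d replicate 1 there were 2 (Hoxd11 and Hoxd3), and without Nr2f2 f/f replicate 4 there were 3 (Hoxd11, Hoxd3 and Hoxb9). Hoxd4 kept its call only without Nr2f2 f/f replicate 2, and its adjusted p rose to 0.140 at most. Log2 fold changes stayed negative in all these fits, between -1.0 and -0.71 for Hoxd4 and between -0.32 and -0.28 for Hoxd9.

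Read along the cluster, the decrease was smallest at Hoxd9 and larger on both sides of it. This was compared within libraries, as the log2 ratio of 1 Hoxd gene to another, a comparison chosen after the values were seen. Of the 15 pairs among the 6 genes, 4 did not overlap between groups: Hoxd9 to Hoxd8, with a difference of 0.28 between mutants and controls, Hoxd10 to Hoxd9 (-0.15), Hoxd11 to Hoxd9 (-0.46) and Hoxd11 to Hoxd10 (-0.31). Each had an exact permutation p of 0.0286, which became 0.107 after adjustment over the 15 pairs. After adjustment over 15 pairs, the 5 pairs with Hoxd9 alone could not have passed, even at 0.0286, the smallest exact permutation p possible. The order along the cluster is given as a description. The log2 ratio of Hoxd4 to Hoxd3 differed by 0.03 between groups (exact permutation p = 0.714).

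**Figure D2:**
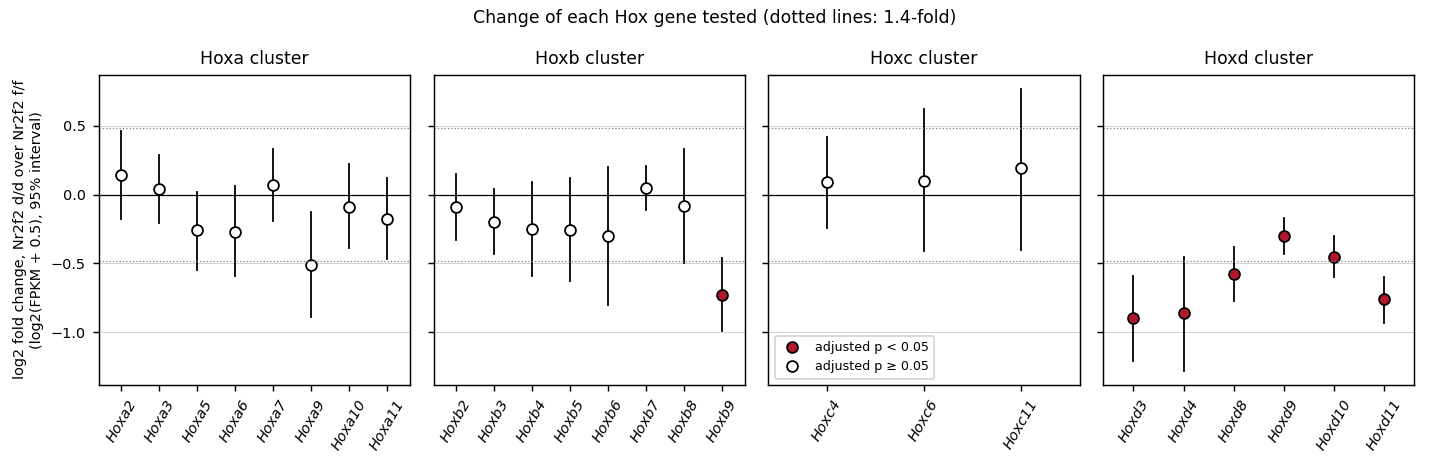
Log2 fold change of the 25 Hox genes tested, Nr2f2 d/d over Nr2f2 f/f on the log2(FPKM + 0.5) scale, in order of position number within each cluster. Bars are 95% intervals from limma, filled points have an adjusted p under 0.05, and dotted lines mark 1.4-fold. The 6 Hoxd genes and Hoxb9 are filled and lie between -0.90 and -0.30, and Hoxd9 is the nearest of them to 0.

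In the Hoxa cluster on chromosome 6, 8 of 11 genes were tested and 0 passed the adjusted threshold, with a median log2 fold change of -0.13 beside -0.02 for all genes tested. The median rested on single libraries, at -0.03 without Nr2f2 d/d replicate 4 and -0.21 without Nr2f2 f/f replicate 1. Hoxa10 was 98.7, 139, 127 and 119 FPKM in Nr2f2 f/f and 125, 123, 113 and 93.7 FPKM in Nr2f2 d/d. The groups overlapped nearly throughout, and the difference was within the spread between mice (log2 fold change -0.09, SE 0.133, 95% interval -0.39 to 0.22, adjusted p = 0.752 from limma). Hoxa11 was 77.1, 89.9, 103 and 96.4 FPKM in Nr2f2 f/f and 88.4, 85.4, 85.8 and 64.9 FPKM in Nr2f2 d/d. Its interval, -0.47 to 0.12, also included 0 (log2 fold change -0.18, adjusted p = 0.459 from limma). The intervals of both genes lie within 1.4-fold in either direction, which is less than the decrease seen for Hoxd3, Hoxd4, Hoxd8 or Hoxd11.

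Hoxa9, which marks the oviduct in the embryonic tract, was the third most abundant gene of the cluster. It was 31.4, 47.6, 38.2 and 35.1 FPKM in Nr2f2 f/f and 32.0, 29.5, 24.2 and 21.0 FPKM in Nr2f2 d/d. In 3 of 4 mutants it was below every control, and Nr2f2 d/d replicate 1 lay just above the lowest control. Hoxa9 passed the unadjusted rule (log2 fold change -0.51, SE 0.165) but not the adjusted one (adjusted p = 0.140 from limma; exact permutation p = 0.0571), and it passed the unadjusted rule in 5 of the 8 fits with 1 library left out. The genes from Hoxa2 to Hoxa7 that were tested lay between 0.472 and 3.17 FPKM in every library, far below the 3 genes at the 5' side. Hoxa5 and Hoxa6 had log2 fold changes of -0.26 and -0.27 and adjusted p of 0.276 and 0.319. Hoxa2, Hoxa3 and Hoxa7 had log2 fold changes of 0.14, 0.04 and 0.07. Hoxa4 was under 0.2 FPKM in every library and was not tested. Hoxa13, the vaginal member of the series, was listed at 0 in all 8 libraries, where 3 fragments would have given 0.0131 to 0.0198 FPKM.

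In the Hoxb cluster (173.9 kb, chr11:96194316-96368256) 1 of 8 genes tested was called, Hoxb9, which lies at the 5' side of the expressed block. It is the Hoxb member of the same paralog group as Hoxa9 and Hoxd9 and shares work with them in rib and mammary gland patterning. It was 4.20, 4.28, 3.22 and 3.25 FPKM in Nr2f2 f/f and 1.97, 1.88, 2.27 and 2.07 FPKM in Nr2f2 d/d. The groups did not overlap (exact permutation p = 0.0286), and the mean fell to 54.7% of control (log2 fold change -0.73, SE 0.115, adjusted p = 0.0233 from limma). Its exons overlap no other annotated gene. The call was lost without Nr2f2 f/f replicate 1 and without either of Nr2f2 d/d replicates 1 and 2, with adjusted p up to 0.0847 from limma.

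The other 7 Hoxb genes tested, Hoxb2 to Hoxb8, overlapped between groups and had log2 fold changes of -0.30 to 0.05. Hoxb6 was the most abundant, at 63.0, 67.1, 41.2 and 41.2 FPKM in Nr2f2 f/f and 43.7, 42.5, 31.2 and 53.8 FPKM in Nr2f2 d/d (log2 fold change -0.30, SE 0.218, adjusted p = 0.460 from limma). Hoxb8, next to Hoxb9, was 25.6, 23.7, 23.5 and 21.1 FPKM in Nr2f2 f/f and 24.8, 23.5, 14.7 and 27.7 FPKM in Nr2f2 d/d. Hoxb7 was 22.2, 22.0, 23.4 and 22.2 FPKM in Nr2f2 f/f and 25, 24.6, 21.2 and 22.3 FPKM in Nr2f2 d/d, with an interval of -0.11 to 0.21 around its log2 fold change of 0.05. Hoxb2, Hoxb3, Hoxb4 and Hoxb5 lay between 6.39 and 15.6 FPKM. Within libraries, Hoxb9 was lower in all 4 mutants than in any control relative to Hoxb2, Hoxb3 and Hoxb7 (exact permutation p = 0.0286 each), which after adjustment over the 7 neighbours was 0.0667. Relative to Hoxb7 the log2 ratio changed by -0.78, the largest of the 7. Hoxb1 was at most 0.023 FPKM in any library. Hoxb13, far from the rest at the 5' end, was listed at 0 in 7 libraries and at 0.012 FPKM in 1 control.

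The Hoxc cluster (115.8 kb, chr15:102921103-103036852) was nearly silent, with a summed level of 3.88 to 6.18 FPKM in Nr2f2 f/f and 5.80 to 6.83 FPKM in Nr2f2 d/d. Hoxc6 was the highest, at 2.70, 3.97, 1.84 and 3.12 FPKM in Nr2f2 f/f and 2.82, 4.25, 2.31 and 3.13 FPKM in Nr2f2 d/d, and its groups overlapped (log2 fold change 0.10, adjusted p = 0.828 from limma). Hoxc4 was 0.487, 0.786, 0.498 and 0.812 FPKM in Nr2f2 f/f and 0.637, 0.891, 0.734 and 0.600 FPKM in Nr2f2 d/d. Hoxc11 was 0.795, 0.461, 0.659 and 0.267 FPKM and 0.619, 0.306, 1.21 and 0.698 FPKM in the same order. None of the 3 passed. Their median log2 fold change was 0.10, but 0.03 without Nr2f2 f/f replicate 3 or without Nr2f2 d/d replicate 2.

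Of the 14 Hox genes under the level for testing, 11 were above 0 in at least 1 library, and the 4 Hoxc genes among them had higher means in Nr2f2 d/d. Hoxc5 was 0.330, 0.285, 0.235 and 0.304 FPKM in Nr2f2 f/f and 0.356, 0.421, 0.458 and 0.423 FPKM in Nr2f2 d/d, 144% of control and without overlap (exact permutation p = 0.0286). Over all genes above 0 in at least 1 library, 5.21% were likewise higher in every mutant than in every control. Hoxc8 was 0.233 to 0.334 FPKM and 0.325 to 0.567 FPKM, and Hoxc10 was 0.256 to 0.425 FPKM and 0.352 to 0.688 FPKM (exact permutation p = 0.0571 for each). Hoxc9 was 0.055 to 0.123 FPKM and 0.082 to 0.207 FPKM (exact permutation p = 0.114). Hoxc5 and Hoxc10 share exon bases on the same strand. Hoxc12 and Hoxc13 were listed at 0 in all 8 libraries.

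Summed over the cluster, Hoxd mRNA was 183, 189, 168 and 165 FPKM in the Nr2f2 f/f uteri and 118, 117, 124 and 120 FPKM in the Nr2f2 d/d uteri (176 ± 11.6 and 120 ± 3.1, SD, n = 4 each). The sums of Hoxa (214 to 285 and 185 to 252 FPKM) and Hoxb (126 to 168 and 101 to 145 FPKM) overlapped between groups. Hoxd therefore supplied 29.2% to 32.6% of all Hox FPKM in the controls and 23.0% to 27.0% in the mutants, while Hoxa supplied 38.0% to 47.5% and 40.6% to 49.7%. The share of Hoxc was 0.675% to 0.964% in the controls and 1.13% to 1.37% in the mutants, while its sums overlapped, and the summed Hox FPKM by which it is divided was 554 to 648 FPKM in the controls and 456 to 512 FPKM in the mutants, lower with Hoxd. The sums add nothing independent to the single genes, since Hoxd10 and Hoxd9 make up much of the Hoxd sum.

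**Figure D3:**
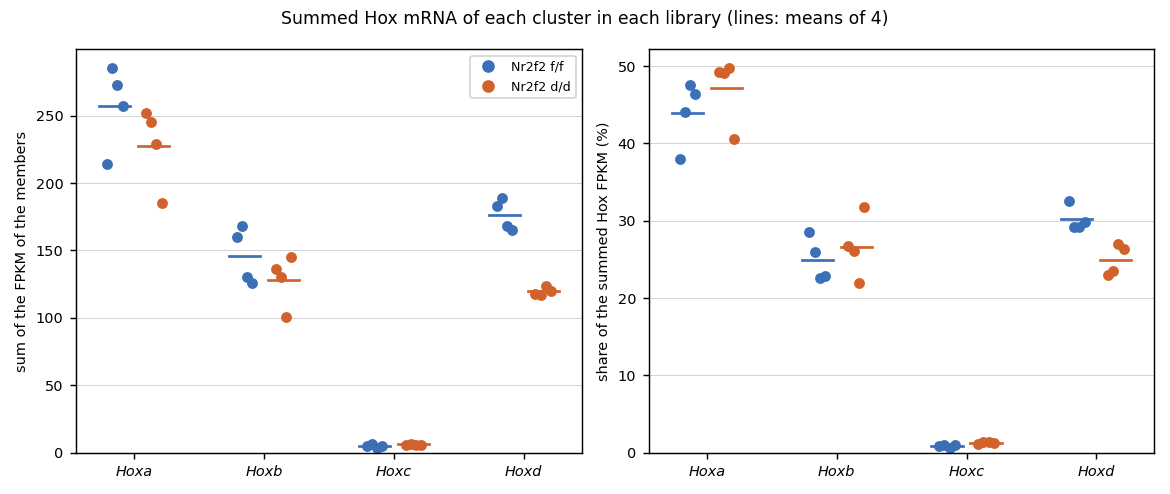
Summed FPKM of the members of each cluster in each library (left) and each cluster's share of the summed Hox FPKM in percent (right), for 4 Nr2f2 f/f (blue) and 4 Nr2f2 d/d (orange) uteri, with lines at the means. Hoxd separates in both panels (165 to 189 against 117 to 124 FPKM), Hoxa and Hoxb overlap in both, and the Hoxc share separates the other way (0.675% to 0.964% against 1.13% to 1.37%) over a total that is lower with Hoxd, while the Hoxc sums overlap.

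Whether the Hoxd genes changed more than their paralogs was tested within libraries for the 20 pairs of tested genes that share a number, again chosen after the values were seen. The log2 ratio of Hoxd11 to Hoxa11 differed by -0.59 between mutants and controls, that of Hoxd4 to Hoxb4 by -0.61, and those of Hoxd3 to Hoxa3 and to Hoxb3 by -0.94 and -0.70. The ratio of Hoxd11 to Hoxc11 differed by -0.95. In each of these pairs all 4 mutants were below all 4 controls (exact permutation p = 0.0286, adjusted p = 0.0816 over the 20 pairs), and 0 of 20 pairs passed an adjusted 0.05. Only 10 of the 20 pairs hold a Hoxd gene. After adjustment over all 20, these 10 alone could not have passed, even at 0.0286, the smallest exact permutation p for 4 against 4 mice. Hoxd10 relative to Hoxa10 differed by -0.37 (exact permutation p = 0.0857), and Hoxd9 relative to Hoxa9 by 0.20 (exact permutation p = 0.371). The other 2 pairs without overlap were Hoxb3 to Hoxa3 (-0.24) and Hoxd9 to Hoxb9 (0.43).

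RNAs that arise between the Hox genes were examined from a list of 24, of which 19 were in the table and 12 were tested. Of these 12, 3 passed the adjusted threshold and 4 the unadjusted rule, all lower, beside 1.53% and 4.1% of all genes tested that were lower by these rules, and their median log2 fold change was -0.54. Haglr, a long noncoding RNA transcribed from the strand opposite to the Hoxd genes near Hoxd3 and Hoxd1, was 2.48, 1.97, 2.13 and 2.01 FPKM in Nr2f2 f/f and 1.5, 1.3, 1.49 and 1.33 FPKM in Nr2f2 d/d (log2 fold change -0.47, SE 0.0959, adjusted p = 0.0471 from limma). It fell without overlap, and the log2 ratio of Haglr to Hoxd3 differed by 0.43 between mutants and controls, higher in all 4 mutants (exact permutation p = 0.0286, adjusted p = 0.0571 over 4 pairs chosen after the values were seen). Gm53, a long intergenic RNA on the 5' side of Hoxb9, was 7.64, 8.39, 5.49 and 6.19 FPKM in Nr2f2 f/f and 3.41, 3.04, 3.76 and 3.21 FPKM in Nr2f2 d/d. Its decrease (log2 fold change -0.93, SE 0.135, adjusted p = 0.0192 from limma) was of the size of that of Hoxb9. The 5 such RNAs tested inside the Hoxb cluster had log2 fold changes of -1.05 to -0.34, with a median of -0.76. Hoxb3os and Hoxb5os, at -0.37 and -0.34, passed neither rule (adjusted p = 0.204 and 0.209 from limma). Hoxa11os, the antisense RNA of Hoxa11, was 91.2, 125, 129 and 109 FPKM in Nr2f2 f/f and 81.0, 79.0, 70.4 and 65.1 FPKM in Nr2f2 d/d. It fell (log2 fold change -0.61, SE 0.127, adjusted p = 0.0491 from limma) where Hoxa11 did not pass, and the log2 ratio of Hoxa11os to Hoxa11 went from 0.31 to -0.13 without overlap (exact permutation p = 0.0286, adjusted p = 0.0571 over the same 4 pairs). The exons of Hoxa11os and Hoxa11 overlap on opposite strands over 47.6% and 35.0% of their bases, and the strand setting of the counting is not given in the sources used here, so fragments of one may be counted for the other. Haglr and Hoxa11os kept their adjusted calls in 0 of 8 fits with 1 library left out, and Gm53 in 5 of 8 (adjusted p up to 0.140, 0.122 and 0.0707 from limma).

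The 5 microRNA genes of the clusters in these families are listed in the table as genes. They carry only 2 seeds, bases 2 to 8, which pair with targets and are in capitals in these mature sequences from RefSeq.
mmu-miR-10a-5p: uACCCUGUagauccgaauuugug
mmu-miR-10b-5p: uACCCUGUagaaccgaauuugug
mmu-miR-196a-5p: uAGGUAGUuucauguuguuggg
mmu-miR-196b-5p: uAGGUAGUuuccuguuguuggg
MicroRNAs of the miR-196 family direct cleavage of Hoxb8 mRNA. RNA-seq fragments over such a gene come from the longer transcript around it and do not measure the mature microRNA. Over Mir10a, near Hoxb4, they were 5.32, 6.20, 4.43 and 2.81 FPKM in Nr2f2 f/f and 2.5, 1.27, 1.76 and 2.40 FPKM in Nr2f2 d/d, and over Mir196a-1, between Hoxb9 and Gm53, 11, 13.8, 7.55 and 12.6 FPKM and 6.67, 7.42, 6.13 and 5.07 FPKM. Both were lower in every mutant than in every control and passed the unadjusted rule only (log2 fold changes -1.05 and -0.76, adjusted p = 0.0689 and 0.0739 from limma). Mir196b lies wholly within an exon of Hoxa9 and overlapped between groups (log2 fold change -0.66, adjusted p = 0.309), as did Mir10b near Hoxd4 (log2 fold change -0.73, SE 0.496, adjusted p = 0.430). Mir196a-2 in the Hoxc cluster was listed at 0.

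Outside the clusters, genes within 500 kb of the ends were compared. Of 36 such genes tested around the 4 clusters, 0 passed either threshold. Over all genes tested 4.1% were lower and 4.7% higher by the unadjusted rule, and 1.53% and 1.09% by the adjusted one. With so few genes the count of 0 was not tested against these shares and marks no boundary. Around Hoxd these were Mtx2 on the 3' side, a mitochondrial import protein, with 33.9 FPKM in Nr2f2 f/f and 34.1 FPKM in Nr2f2 d/d on average, and Lnpk on the 5' side, an endoplasmic reticulum protein, with 2.74 and 2.53 FPKM. Their log2 fold changes were 0.01 and -0.09 (adjusted p = 0.963 and 0.589 from limma). Evx2, which adjoins Hoxd13, averaged 0.002 FPKM in the controls and was not tested. A list of named flanking genes, which also reached farther from the clusters, had 22 tested and 0 past either threshold, again too few to read against those shares. In it Chn1, a gene farther out on the 5' side of Hoxd, was lower in every mutant than in every control, at 2.69 to 3.86 FPKM in Nr2f2 f/f and 1.95 to 2.56 FPKM in Nr2f2 d/d (log2 fold change -0.42, SE 0.124, adjusted p = 0.114 from limma), a decrease in size between those of Hoxd9 and Hoxd10. It was 1 of 22 genes without overlap in that list, where 9.91% of all genes tested were lower without overlap. The other chromosome 2 genes of the list (Atp5g3, Hnrnpa3, Nfe2l2 and Agps) overlapped between groups, with log2 fold changes of -0.07 to 0.10.

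**Figure D4:**
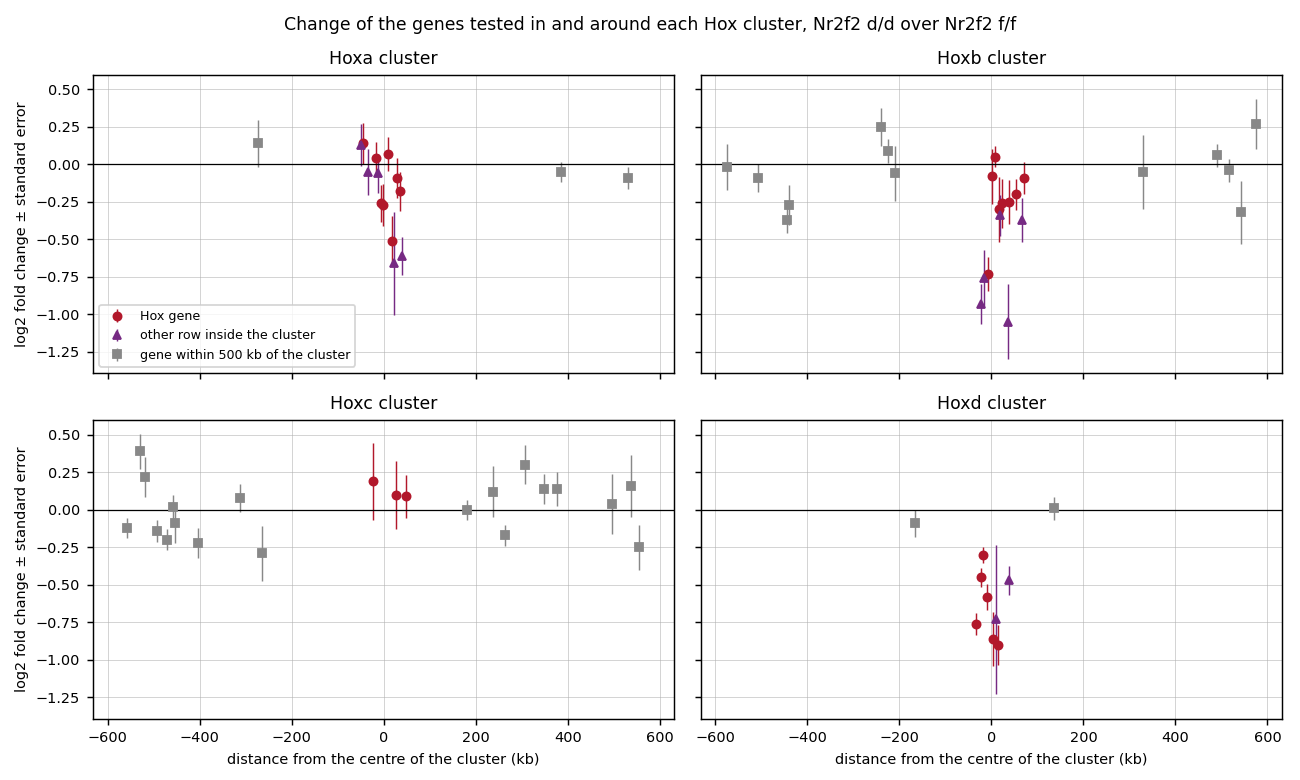
Log2 fold change (± SE from limma) of tested genes against distance from the centre of each Hox cluster in kb: Hox genes (red circles), other RNAs inside the cluster (purple triangles) and genes within 500 kb of its ends (grey squares). Around Hoxd the 6 Hox genes lie at -0.30 or below and the 2 flanking genes at -0.09 and 0.01. In Hoxb the lowest points are Hoxb9, Gm53, Mir196a-1 and Mir10a.

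The proteins with which Hox factors act, and those that keep or silence Hox expression, were looked at as lists. Over all genes tested, 4.1% were lower by the unadjusted rule, 1.53% by the adjusted one and 9.91% without overlap. Of 9 TALE homeodomain cofactors (the Pbx, Meis and Pknox genes), all were tested and 0 passed the adjusted threshold. In 2 of the 9 every mutant was below every control. Pbx4 passed the unadjusted rule, at 1.13 to 1.64 FPKM in Nr2f2 f/f and 0.522 to 0.995 FPKM in Nr2f2 d/d (log2 fold change -0.59, adjusted p = 0.0811 from limma). Of 12 trithorax genes, which maintain active Hox chromatin, Kmt2a passed the unadjusted rule, at 7.11 to 12.1 FPKM and 5 to 6.15 FPKM (log2 fold change -0.55, adjusted p = 0.111 from limma), a call lost when Nr2f2 f/f replicate 2 was left out. Of 20 Polycomb genes, which hold Hox chromatin silent, 0 passed that rule. Cbx2, a reader of the repressive histone mark, was 3.44 to 4.24 FPKM and 2.36 to 2.65 FPKM. It passed the adjusted threshold (log2 fold change -0.48, adjusted p = 0.0388 from limma). On the log2(FPKM + 0.5) scale it was just short of 1.4-fold, while the control mean FPKM was 1.47 times the mutant mean. With 1 library left out, Cbx2 kept its adjusted call in 0 of 8 fits and passed the unadjusted rule in 5. Cbx2 and Phc3 were the 2 Polycomb genes lower in every mutant. The medians of these 3 lists were -0.05, -0.12 and -0.06, beside -0.02 for all genes. In the trithorax list 10 of 12 genes had a negative log2 fold change, as had 7637 of all 14323 genes tested. In 4 of the 12 (Kmt2a, Kat6a, Ash1l and Rbbp5) every mutant was below every control, with adjusted p of 0.0799 to 0.185 from limma.

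Of 10 genes known to act upstream of Hox genes, including the retinoic acid receptors and Cdx factors, 7 were tested. By the unadjusted rule 1 passed, Zbtb16, a zinc finger repressor, which did not pass the adjusted one. Zbtb16 was 6.43 to 13.4 FPKM in Nr2f2 f/f and 3.44 to 7.23 FPKM in Nr2f2 d/d. Over all genes tested, 4.1% were lower by the unadjusted rule and 1.53% by the adjusted one. The unadjusted count of this list was 2 without Nr2f2 f/f replicate 3 or without Nr2f2 d/d replicate 4. Cyp26a1, which breaks down retinoic acid, had the largest fold change of the list but was 242, 247, 10.1 and 12.2 FPKM in Nr2f2 f/f and 7.3, 7.81, 2.91 and 58.9 FPKM in Nr2f2 d/d, so that replicates 1 and 2 stood apart from the other controls and the groups overlapped (log2 fold change -2.32, SE 1.32, adjusted p = 0.348 from limma). Cdx2 and Cdx4 were listed at 0. Of 5 tested genes described as targets of Hoxa10 in uterus (Itgb3, Emx2, Ptger3, Ptger4 and Cdkn2b), 0 passed either rule, with log2 fold changes from -0.55 to 0.48, but 3 (Emx2 and Itgb3, higher, and Ptger4, lower) passed the unadjusted rule without Nr2f2 d/d replicate 4, and Ptger3, higher, passed both with Nr2f2 d/d replicate 3 left out. Of 12 tested genes that pattern the female tract beside the Hox genes, 4 passed the unadjusted rule, all higher, and 2 the adjusted one, where 4.7% and 1.09% of all genes tested were higher by these rules. The 2 were the paired homeobox genes Dlx5, at 18.2 to 22.4 FPKM in Nr2f2 f/f and 27.4 to 33.0 FPKM in Nr2f2 d/d (log2 fold change 0.56 and adjusted p = 0.0262 by limma), and Dlx6, at 8.58 to 9.73 FPKM and 12.7 to 15.8 FPKM (log2 fold change 0.59, adjusted p = 0.0251 from limma). The Dlx5 call was kept in 2 and the Dlx6 call in 3 of 8 fits with 1 library left out (adjusted p up to 0.0785 and 0.0781 from limma). Wnt5a, a stromal ligand, and Msx2, a homeobox gene of the epithelium, had log2 fold changes of 0.75 and 1.41 and adjusted p of 0.0744 and 0.163.

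Markers of cell types moved with the Hoxd genes in part. Over all genes tested, 4.1% were lower and 4.7% higher by the unadjusted rule, and 1.53% and 1.09% by the adjusted one. Of 7 endothelial markers, 6 passed the unadjusted rule and 5 the adjusted one, all lower, with a median log2 fold change of -0.73 and summed levels of 252 to 335 FPKM in Nr2f2 f/f and 157 to 199 FPKM in Nr2f2 d/d. The 6 unadjusted calls stood whichever library was left out, but the 5 adjusted ones became 0 when Nr2f2 d/d replicate 1, Nr2f2 d/d replicate 2 or Nr2f2 f/f replicate 1 was left out. They became 1 with Nr2f2 f/f replicate 4 left out, and 3 with Nr2f2 d/d replicate 4 or Nr2f2 f/f replicate 2 left out. The vessel genes Pecam1 and Cdh5 had log2 fold changes of -0.90 and -0.99, close to that of Hoxd3, and Cldn5 had 0.10. Stromal markers went both ways: of 8, 5 were higher (Dcn, Lum and the collagens Col1a1, Col1a2 and Col3a1) and 2 lower (Vim and Thy1) by the unadjusted rule, and their sum was 1696 to 1956 FPKM and 2485 to 4820 FPKM. These 7 calls became 4 without Nr2f2 f/f replicate 1. Of 8 smooth muscle markers, 0 passed, with sums of 1297 to 1825 FPKM and 1041 to 2561 FPKM. Of 8 epithelial markers, 2 were higher by the unadjusted rule (Krt8 and Krt19), with sums of 788 to 832 FPKM and 927 to 1136 FPKM.

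Among other tissues the unadjusted rule was used, by which 4.7% of all genes tested were higher and 4.1% lower. Of 5 mesothelial markers, 3 were higher (sums 68.5 to 117 FPKM and 122 to 201 FPKM; 1 of 5 without Nr2f2 f/f replicate 3). Of 6 cervical and vaginal markers only 2 reached the level for testing, Krt5 and Krt13, and both were higher. The 6 summed to 0.380 to 1.87 FPKM and 1.36 to 8.90 FPKM. With 1 library left out, 1 to 3 of the 6 were tested, and all of those passed. Of 6 immune markers tested 1 was higher (sums 38.0 to 59.4 FPKM and 42.5 to 68.9 FPKM; 0 without Nr2f2 d/d replicate 1 or without Nr2f2 d/d replicate 4). Of 2 skeletal muscle markers tested 1 was higher (sums 11.8 to 32.3 FPKM and 21.3 to 43.5 FPKM, Myh4 at 0). Markers of oviduct (sums 9.41 to 28.8 FPKM and 5.32 to 54.8 FPKM) and ovary (6.28 to 8.13 FPKM and 6.53 to 7.97 FPKM, Fshr at 0) passed in 0 cases, and adipocyte markers summed to at most 1.31 FPKM in any library. Of 2 oviduct markers tested, 1 was lower in every mutant than in every control, as were 9.91% of all genes tested. Without Nr2f2 d/d replicate 3, 1 of 2 oviduct markers passed. The part of endothelial, stromal or other cell numbers in the decrease of the Hoxd genes was not tested.

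**Figure D5:**
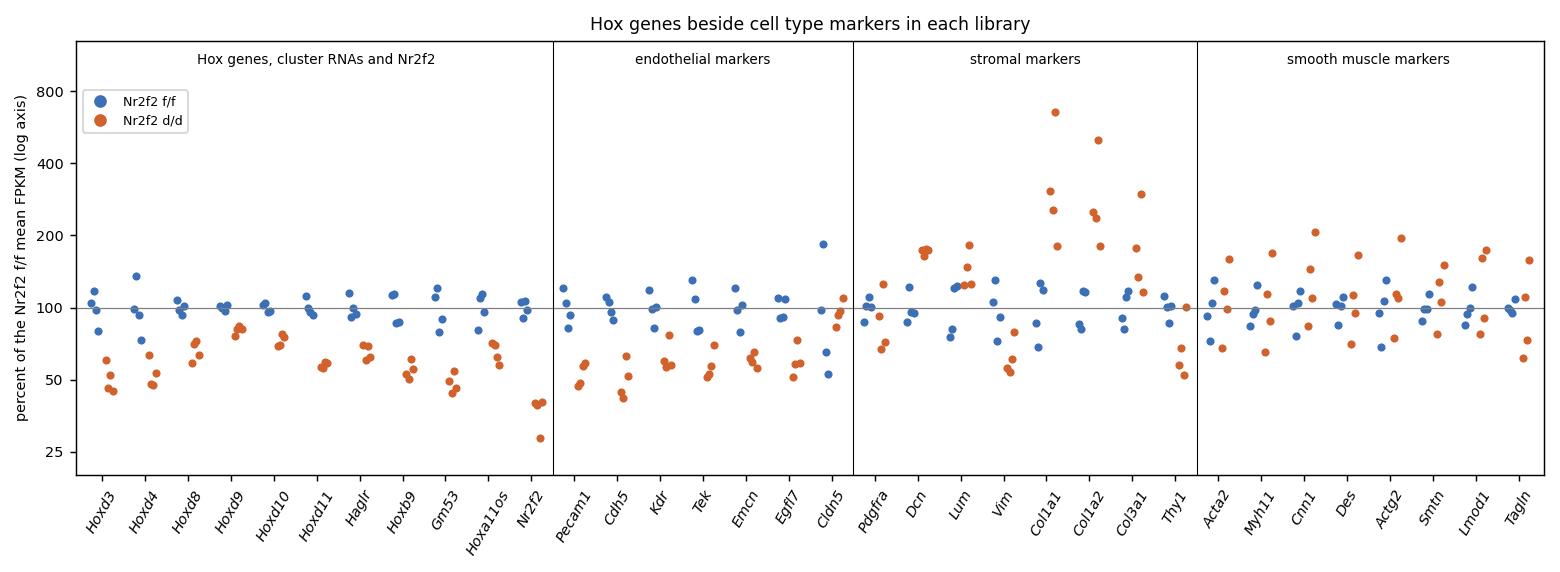
Each library's FPKM as a percentage of the Nr2f2 f/f mean of that gene, on a log axis, for the Hox genes and cluster RNAs past the adjusted threshold and Nr2f2, and for the endothelial, stromal and smooth muscle markers. The Nr2f2 d/d points (orange) of the Hoxd genes, of Hoxb9 and of 6 of 7 endothelial markers lie below all Nr2f2 f/f points (blue), while smooth muscle markers overlap and stromal markers move in both directions.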

How the data were processed

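RNA-seq libraries of GD3.5 uterus from 4 Nr2f2 f/f and 4 Nr2f2 d/d mice were grouped by their titles. The authors trimmed reads with cutadapt 1.12, aligned them to mm10 with STAR 2.5.2b, counted fragments with featureCounts 1.5.0-p1 and deposited FPKM (the submitters' notes also name Cufflinks 2.0.2). The annotation, gene lengths and strand setting are not given in the sources used here. The authors tested counts with DESeq2. Those counts were not used here, so FPKM were tested on the log2 scale after adding 0.5, with limma 3.58.1 (lmFit, eBayes with trend, two-sided) in R 4.3.3, on genes that averaged 0.5 FPKM or more, with Benjamini-Hochberg adjustment over all of them. FPKM share a total, so a change in very abundant RNAs shifts the others.

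Single values were compared by two-sided exact permutation over the 70 arrangements of 4 against 4 libraries. Of the table's genes, 3893 were 0 in all libraries. Symbols were matched to GENCODE vM21 (24378 of 24963) for coordinates. Totals were estimated as those at which short genes of 1 exon gave whole fragments (86.8% to 90.7% of values within 0.1). A floor of 3 fragments covers counting error alone. The model was tested on simulated data. Tables were made with Python 3.11.15.

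The values of 1 Hox gene under the level for testing are not reported here. The genes, lists and tests were chosen with earlier results of these data known. Genes with values in each library are Hox genes past p of 0.05 with a 1.4-fold change, the 3 most abundant of each cluster, Hoxa10 and Hoxa11. Genes of the lists other than cell type markers past that rule are named, with values by library, as ranges or as fold changes. The other adjusted calls, Hoxc5, Cyp26a1, the flanking genes and genes listed without a call were named after their values were seen. Alternatives were other added values (0.1 and 1), filters, scalings and variance models, the replicate number as a block, and each library left out.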

Additional observations from a re-analysis of the deposited data

Results flagged for a closer look

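In 3 of the 50 groups of 4 libraries checked (25 Hox genes in each genotype), 1 library stood apart from the other 3, with a gap to the nearest of them above Dixon's 95% critical value. Chance gives this in about 1 group in 20. Hoxa11 was 64.9 FPKM in Nr2f2 d/d replicate 4 and 85.4 to 88.4 FPKM in the other mutants. Hoxa3 was 1.49 FPKM in Nr2f2 f/f replicate 2 and 1.11 to 1.15 FPKM in the other controls. Hoxb7 was 23.4 FPKM in Nr2f2 f/f replicate 3 and 22.0 to 22.2 FPKM in the other controls. None of these 3 genes passed a threshold, with or without the library named.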

How the results depend on the processing

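The 5 to 7 Hox genes past the unadjusted rule under every alternative stayed close to the 6 reported, and the count with an adjusted p under 0.05 varied more. It was 6 or 7 under the other added values, filters, scalings and variance models, and Hoxd4 was the gene lost where it was 6. Leaving out 1 library gave 1 to 7 Hox genes and 42 to 348 of all genes, of the 7 and 375 reported. The lowest counts of Hox genes came without Nr2f2 f/f replicate 1 (1, with 62 of all genes), Nr2f2 d/d replicate 2 (1, with 42), Nr2f2 d/d replicate 1 (2, with 57) and Nr2f2 f/f replicate 4 (3, with 95). Without Nr2f2 f/f replicate 3 there were 5, with 208 of all genes.

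Whether the replicate number pairs the mice is not known, and the few correlations that follow cannot exclude it. Deviations of same-numbered libraries correlated at -0.204 to 0.0452 for the numbers in the titles and at -0.204 to 0.149 for those in the descriptions. With the replicate as a block, 0 Hox genes passed the adjusted threshold under either numbering, and 1 and 0 of all genes. A block also leaves less information from which to estimate the spread between mice, so these lost calls cannot be read either way. The fit by description numbers also lacks Nr2f2 f/f replicate 2 and Nr2f2 d/d replicate 3, which have no partner, so block and missing libraries cannot be told apart in it.

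Under median-ratio scaling 191 of 376 adjusted calls over all genes were higher (50.8%), against 156 of 375 (41.6%) as reported. With no filter on low values the Hoxd median moved from -0.67 to -0.45, since 3 members near 0 enter it. Signs changed only in genes that did not pass: with 1 library left out, Hoxa10 ran from -0.18 to 0.00 (the latter without Nr2f2 d/d replicate 4), Hoxb8 from -0.19 to 0.11 (without Nr2f2 d/d replicate 3) and Hoxc6 from -0.07 (without Nr2f2 f/f replicate 3; -0.04 for Nr2f2 d/d replicate 2) to 0.25, and in the fit by description numbers, with 2 libraries fewer, Hoxb8 was 0.11 and Hoxc11 -0.03. At these depths genes under about 0.03 FPKM rest on a few fragments.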
